A study of Mus musculus with 13 samples.

Results

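The genes described here encode the signalling core of the T cell receptor: the CD3 chains Cd3d, Cd3e and Cd3g, the zeta chain Cd247, the co-receptor Cd4, the kinases Lck and Zap70, and the adaptors Lat and Lcp2 (SLP-76). They were taken by symbol from the table of estimated counts, where each of the 9 symbols matched 1 of 55774 entries. All 9 passed the filter on low counts. RNA had been sequenced in bulk from CD4+ T cells of female BDC2.5 mice of strain NOD/ShiLtJ, which in all groups carry the transgenes TcraBDC2.5 and TcrbBDC2.5 (line 1Doi/DoiJ), so that 1 receptor directs the T cells against a beta-cell antigen. Naive cells from spleen made up every library. The 4 cells-alone libraries are labelled untreated. In the other libraries T cells had spent 96 hours with islet macrophages of NOD mice and were then sorted by flow cytometry as live cells positive for CD45, Thy1.2 and CD4. The labels describe this sort after co-culture only. The macrophage donors had received control buffer (4 libraries, control-macrophage co-culture) or a single low dose of streptozotocin (STZ), a beta-cell toxin (5 libraries, STZ-macrophage co-culture). Donors were injected at 4 weeks of age, and their islets were taken 10 days later, at 5.5 weeks. The age of the T cell donors, the number of mice behind a library and whether the cells alone were cultured are not given in the labels, so a comparison with the cells alone covers time in culture and macrophages together. The labels call the replicates biological without naming animals, so a p-value measures the spread between these libraries.

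The alpha-beta T cell receptor cannot signal by itself. It is carried by CD3 gamma-epsilon and delta-epsilon pairs and a pair of zeta chains, whose tails hold the tyrosines that Lck phosphorylates. CD4 binds MHC class II and brings Lck to the receptor, ZAP-70 docks on the phosphorylated tails and phosphorylates LAT, and LAT and SLP-76 then assemble the complex that activates phospholipase C gamma 1, calcium release and RAS. Activated T cells are known to take receptor complexes off the surface. RNA levels, which were measured here, do not report on that.

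Cd3g, Cd3d and Cd3e lie beside each other on mouse chromosome 9 (GRCm38), with Cd3g and Cd3d transcribed away from each other from starts that are 1355 bases apart. The start of Cd3e is 27841 bases from that of Cd3d. The 250 bases before each RefSeq start are shown because these neighbours did not keep a fixed proportion in the data below. The part of these bases in that was not tested. For Cd3e the window begins at 45009612, inside the GENCODE gene model used for the distances, which ends at 45009627. Sequences are from RefSeq (GRCm38.p6), written 5′ to 3′ on the gene's strand, with matches to the searched motifs in capitals.
Cd3g, chr9:44980432-44980681, minus strand: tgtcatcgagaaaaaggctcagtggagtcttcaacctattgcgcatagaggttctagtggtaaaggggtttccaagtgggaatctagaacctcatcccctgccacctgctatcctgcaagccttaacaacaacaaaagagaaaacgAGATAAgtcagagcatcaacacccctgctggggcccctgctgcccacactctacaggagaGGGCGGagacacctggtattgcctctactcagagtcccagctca
Cd3d, chr9:44981536-44981785, plus strand: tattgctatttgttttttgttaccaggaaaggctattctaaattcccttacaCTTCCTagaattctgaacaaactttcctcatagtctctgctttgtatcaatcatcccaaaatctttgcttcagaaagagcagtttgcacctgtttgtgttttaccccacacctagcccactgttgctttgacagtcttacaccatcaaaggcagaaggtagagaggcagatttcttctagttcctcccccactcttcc
Cd3e, chr9:45009612-45009861, minus strand: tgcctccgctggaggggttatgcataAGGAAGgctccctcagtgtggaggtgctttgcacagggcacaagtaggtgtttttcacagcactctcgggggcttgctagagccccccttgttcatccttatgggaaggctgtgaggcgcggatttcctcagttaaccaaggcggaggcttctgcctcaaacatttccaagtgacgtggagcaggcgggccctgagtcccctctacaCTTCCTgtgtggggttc
The motifs, searched on both strands, were the ETS cores CCGGAA and AGGAAG, the RUNX core TGTGGT, the GATA core AGATAA, the TATA box TATAAA and the SP1 box GGGCGG. No matches overlapped in the 3 windows. AGGAAG or its complement occurred once before Cd3d, at 2 places before Cd3e and not before Cd3g, and is held by 29.5% of 32851 promoter windows of that length. The window of Cd3g held 1 AGATAA (in 9.99% of windows) and 1 GGGCGG (in 32.7%). The motifs CCGGAA (12% of windows), TGTGGT (14%) and TATAAA (12.4%) are not in these windows. Of the 9 genes, 8 had a RefSeq promoter entry; Cd4 had none.

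Libraries held 17.3 M to 61.3 M estimated counts, and levels are given as CPM, the counts per 1000000 of the library's TMM-scaled total. The libraries differed in base composition. The mean GC content of the transcripts counted was 47.2% to 48.7%, and was highest in cells-alone replicate 2 (48.7%), STZ-macrophage replicate 1 (48.7%) and STZ-macrophage replicate 5 (48.6%). Cells-alone replicate 2 was also the shallowest library. The labels name 2 batches, day 1 and day 2. Day 1 holds the 4 libraries of cells alone, 3 of the control-macrophage group and STZ-macrophage replicates 1 and 5, and day 2 holds control-macrophage replicate 3 and STZ-macrophage replicates 2 to 4. Summed markers of other cells are given per 1000000 of the unscaled total. Of 14 macrophage markers 11 were tested, and their summed level was 3.33 to 14.8 CPM in the cells alone, 6.81 to 43.4 CPM in the control-macrophage and 24.5 to 109.7 CPM in the STZ-macrophage co-culture. Cd14 was at 0 in each library of cells alone, and C1qc and Lyz2 were at most 0.231 and 0.160 CPM there. The markers did not all go this way. Itgam and Apoe reached 13.2 and 3.75 CPM in the cells alone, against at most 6.48 and 1.08 CPM in the co-cultures. The 6 B cell markers summed to 7.34 to 24.3, 0.459 to 1.55 and 0.485 to 1.28 CPM, the 6 CD8 and NK cell markers to 89.0 to 163, 38.3 to 75.4 and 54.3 to 74.1 CPM, and the 6 dendritic cell markers to at most 10.3 CPM in any library. The CD8 and NK cell markers went both ways. In the same order of groups, Klrd1 was at 66.7 to 119, 11.7 to 43.3 and 31.2 to 45.0 CPM. Eomes was at 0 to 0.609, 4.12 to 10.2 and 4.80 to 15.5 CPM. The 6 islet endocrine markers summed to 133.8 CPM in STZ-macrophage replicate 2 and 107.1 CPM in replicate 4, against 0.285 to 2.86 CPM in the other 3 libraries of that group, at most 1.26 CPM in the control-macrophage co-culture and at most 0.658 CPM in the cells alone. Without either of those 2 libraries in turn, the number of the 9 genes called was the same, 1 for STZ macrophages against the cells alone and 0 between the co-cultures. Thus the libraries carry the transcripts of their labelled cell type, with Cd3e at 922 CPM or more and Cd4 at 515 CPM or more in each. Cd4 protein served in the sort of the co-cultures. In bulk RNA, fewer T cells in a sample and less RNA per cell cannot be told apart.

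**Figure D1:**
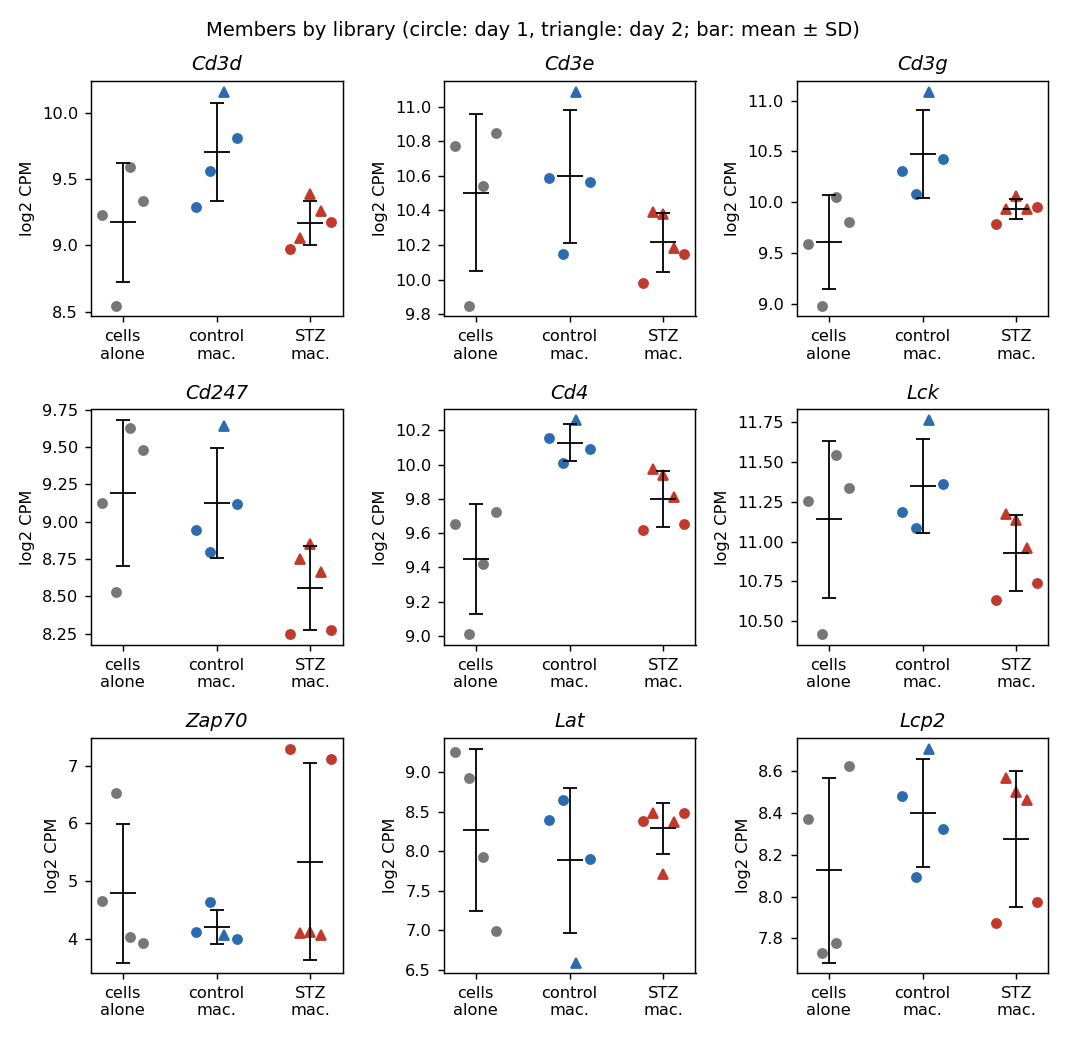
Level of each of the 9 genes (log2 CPM, y axis; scales differ between panels) in every library of the 3 groups (x axis); circles are day 1 libraries, triangles day 2 libraries, and the bar is the mean ± SD. In TMM-scaled CPM, Cd3g and Cd4 are higher in each control-macrophage library than in each library of either other group. Zap70 separates the STZ-macrophage libraries by day.

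The first comparison, of the control-macrophage co-culture with the cells alone, asks how the receptor module differs in T cells kept with islet macrophages. Cd3g, which encodes the gamma chain, and Cd4 rose, by 1.66-fold and 1.51-fold. The other 7 genes did not pass the test, with log2 fold changes from -0.36 to 0.41. By count, 2 of 9 genes were called, both higher, whereas 45% of the 15781 genes tested were called (23.1% higher, 22% lower; edgeR quasi-likelihood test with a day term, Benjamini-Hochberg adjusted p under 0.05). The median log2 fold change was 0.04 over the 9 genes and -0.13 over all genes tested. These 2 genes did not overlap between the groups in TMM-scaled CPM, against 39.8% of all genes (22.2% higher). By edgeR, no other of the 9 had an unadjusted p under 0.05, against 52.6% of all genes (26.4% lower). Neither call held in 2 settings. With libraries scaled by total counts Cd3g was at 0.42 (adjusted p = 0.0729) and Cd4 at 0.29 (adjusted p = 0.0832), and Cd247 was then called lower (-0.56, adjusted p = 0.0173). With only these 2 groups in the edgeR fit the adjusted p were 0.111 and 0.0668. The call of Cd3g was also lost with day 1 libraries only (0.69, edgeR adjusted p = 0.0694), and that of Cd4 with the authors' adjusted values (0.42, limma adjusted p = 0.0981).

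The second comparison set the STZ-macrophage co-culture against the cells alone. Cd247, the zeta chain, fell by 1.03 on the log2 scale (SE 0.23, edgeR adjusted p = 0.00338), and was 2.04-fold lower in the fit with the day term. Its group means were 382 CPM with STZ macrophages and 608 CPM in the cells alone. Without the day term its difference was -0.67 (edgeR adjusted p = 0.0392). The cells alone have no day 2 library, so the day term is estimated from the co-cultures. The other 8 genes did not pass, among them Cd3g (0.05, adjusted p = 0.883) and Cd4 (0.18, adjusted p = 0.438). Thus 1 of 9 genes was called where 43.1% of all genes were (20.8% higher, 22.3% lower), 3 had an unadjusted p under 0.05 against 51.2% (26.5% lower), and none of the 9 was free of overlap between the groups, against 39.6% of all genes. Cells-alone replicate 2 weighed on this count. Without that library edgeR called 8043 of all genes, against 6807 with it, and the median log2 fold change of all genes was 0.25, against -0.05. Of the 9 genes 4 were then called: Cd247, Cd3e (-0.55, adjusted p = 0.0107) and Lck (-0.53, adjusted p = 0.00519) as lower and Zap70 (2.57, adjusted p = 0.00328) as higher. The call of Cd247 was lost with the authors' adjusted values (-0.37, limma adjusted p = 0.286), when only the day 1 libraries were fitted (-0.76, edgeR adjusted p = 0.103) and with the replicate number as a block (-0.84, edgeR adjusted p = 0.0846).

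The third comparison, of the STZ-macrophage with the control-macrophage co-culture, asks what prior beta-cell damage in the macrophage donors changes. None of the 9 genes was called by edgeR, DESeq2 or limma on the authors' adjusted values, in a comparison where edgeR called 0.323% of all genes (24 or 0.152% higher, 27 or 0.171% lower). By edgeR, 7 of the 9 had an unadjusted p under 0.05, against 22.8% of all genes (14.8% lower). Of these 7, Cd3d, Cd3e, Cd3g, Cd247, Cd4 and Lck had lower fitted values and Zap70 a higher one. Control-macrophage replicate 3, the only day 2 library of its group (TMM factor 0.745), was highest in that group for each of the lower genes. Leaving out 1 library at a time gave -0.76 to -0.33 for Cd3d, -0.62 to -0.23 for Cd3e and -0.80 to -0.25 for Cd3g. For Cd247 the range was -0.81 to -0.54, for Cd4 -0.43 to -0.23, for Lck -0.63 to -0.37 and for Zap70 1.44 to 3.09. The median log2 fold change was -0.53 over the 9 genes and -0.13 over all genes. Cd3g and Cd4 were lower in all 5 STZ-macrophage libraries than in all 4 control-macrophage libraries, 2 of 9 genes against 7.55% of all genes without overlap (5.08% lower, 2.46% higher). Without the 3 libraries of highest GC content the difference of Cd4 was -0.06. That fit keeps STZ-macrophage libraries of day 2 only, so it sets them against control-macrophage replicate 3 alone. When the 9 co-cultures were fitted without the cells alone, 5 of the 9 genes were called by edgeR: Cd247 (-0.58, adjusted p = 0.01), Lck (-0.40, adjusted p = 0.0226), Cd3g (-0.49, adjusted p = 0.0337) and Cd3d (-0.47, adjusted p = 0.0419) as lower and Zap70 (1.91, adjusted p = 0.0352) as higher. That fit called 2698 genes in all, against 51 in the fit of 13 libraries.

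**Figure D2:**
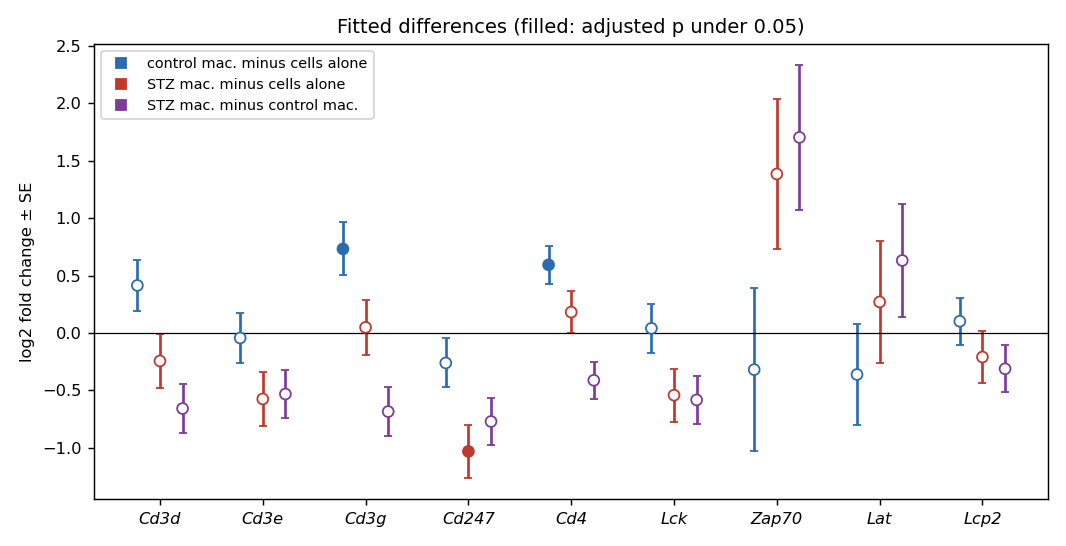
Fitted log2 fold change of each gene with its standard error (y axis) in the 3 comparisons; filled symbols have an adjusted p under 0.05 by edgeR. Only Cd3g and Cd4 in the control-macrophage co-culture and Cd247 in the STZ-macrophage co-culture, each against the cells alone, are filled.

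Among the receptor chains, only Cd3g was called in the control-macrophage co-culture. It was at 773, 507, 1065 and 899 CPM in cells-alone replicates 1 to 4, and at 1270, 1086, 2173 and 1372 CPM in control-macrophage replicates 1 to 4. In STZ-macrophage replicates 1 to 5 it was at 883, 977, 1069, 983 and 993 CPM. In TMM-scaled CPM the control-macrophage libraries all lay above both other groups, and the highest of them was the day 2 library, replicate 3. TMM factors were 1.10 to 1.30 in the cells alone and 0.745 to 0.994 in the control-macrophage libraries. Per unscaled total, control-macrophage replicate 2 (66119 counts of 61.3 M) was below cells-alone replicate 3 (47604 of 39.8 M). The fitted difference to the cells alone was 0.73 (SE 0.23, edgeR adjusted p = 0.0205) for the control-macrophage co-culture, and the STZ-macrophage group, within 883 to 1069 CPM, overlapped the cells alone.

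Cd247 was lowest in the STZ-macrophage co-culture. It was at 559, 369, 790 and 714 CPM in cells-alone replicates 1 to 4, at 493, 444, 799 and 555.1 CPM in the control-macrophage libraries, and at 304, 431, 461, 406 and 309 CPM in STZ-macrophage replicates 1 to 5. Apart from cells-alone replicate 2, each library of cells alone was above each STZ-macrophage library. The STZ-macrophage libraries of day 1 (replicates 1 and 5) were the lowest of all. Cd247 carries more signalling motifs than the other chains and limits how many receptors assemble, and it is annotated at 1:165788681-165877277 on the plus strand. Of its 5329 merged exon bases, 56.4% lie under exons of Pou2f1, a transcription factor gene on the opposite strand, and the labels do not state that counting used strand, so reads of the pair may be shared. Pou2f1 itself was at 15.5 to 35.6 CPM in the cells alone, 5.65 to 22.6 CPM in the control-macrophage and 8.25 to 17.6 CPM in the STZ-macrophage co-culture, well under Cd247 in each group. Of the 9 genes only Cd247 and Cd3e had estimated counts that were not whole (18217.34 and 57041.11 in cells-alone replicate 1). Cd3e, the denominator of the chain ratios below, shares 135 exonic bases with Gm48719 on the opposite strand. The part of shared reads in either gene was not tested.

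Cd3d and Cd3e, the delta and epsilon chains, were not called in any of the 3 comparisons. Cd3d was at 373 to 772 CPM in the cells alone, 626 to 1143 CPM in the control-macrophage and 503 to 669 CPM with STZ macrophages. Cd3e, the chain shared by both CD3 pairs, was at 922 to 1844, 1134 to 2175 and 1012 to 1341 CPM in the same order. The groups overlapped for both genes. The lowest values of Cd3e, 922 and 1012 CPM, were in cells-alone replicate 2 and STZ-macrophage replicate 1, among the 3 libraries of highest GC content. Without those 3 libraries Cd3g (0.49, edgeR adjusted p = 0.034) and Cd4 (0.54, adjusted p = 0.00595) kept their calls with control macrophages against the cells alone. Cd247 was at -1.02 with STZ macrophages against the cells alone. The STZ-macrophage libraries left in that fit are all of day 2 and the cells alone all of day 1. The value of Cd247 there depends on a day term that rests on control-macrophage replicate 3, the only control-macrophage library of day 2. GC content and day cannot be told apart in it. Of the constant genes of the receptor itself, Trac, Trbc1 and Trbc2, none of the 3 was called in the control-macrophage co-culture (-0.02, -0.06 and 0.03). All 3 were called lower in the STZ-macrophage co-culture (-0.73 to -0.66), where 22.3% of all genes were called lower. Each of the 3 overlapped between that co-culture and the cells alone, and these fold changes also use the day term. Trac stood at 2357 ± 370 CPM (SD, n = 5) with STZ macrophages and at 3050 ± 976 CPM (n = 4) in the cells alone.

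Because the scaling of libraries bears on every CPM, the chains were also set against Cd3e within each library, a ratio that no scaling changes. The log2 ratio of Cd3g to Cd3e counts was -1.18, -0.86, -0.49 and -1.04 in cells-alone replicates 1 to 4. It was -0.28, -0.06, -0.00089 and -0.14 in the control-macrophage and -0.20, -0.46, -0.32, -0.24 and -0.19 in the STZ-macrophage libraries. Every co-culture library was above every cells-alone library, so Cd3g stood higher against Cd3e in both co-cultures, with means of -0.12 ± 0.12 (SD, n = 4) and -0.28 ± 0.11 (n = 5) against -0.89 ± 0.30 (n = 4). The ratio of Cd4 to Cd3e also separated the cells alone (-1.13 to -0.84) from the STZ-macrophage (-0.50 to -0.37) and, narrowly, from the control-macrophage libraries (-0.83 to -0.14). Ratios of Cd3d to Cd3e overlapped between all groups (-1.55 to -0.95 in the cells alone, -1.30 to -0.59 and -1.34 to -0.92 in the co-cultures). The same was true of Cd247 to Cd3e, with -1.65 to -0.92 in the cells alone, -1.64 to -1.35 in the control-macrophage and -1.87 to -1.52 in the STZ-macrophage co-culture. Between the neighbours Cd3d and Cd3g, a ratio added after the values had been seen, the log2 ratio was -0.48 to -0.37 in the cells alone and -1.02 to -0.53 over all co-cultures. These ratios are descriptions with no test. How many other gene pairs separate in this way was not computed. Of single genes, 39.8% with control and 39.6% with STZ macrophages did not overlap the cells alone.

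**Figure D3:**
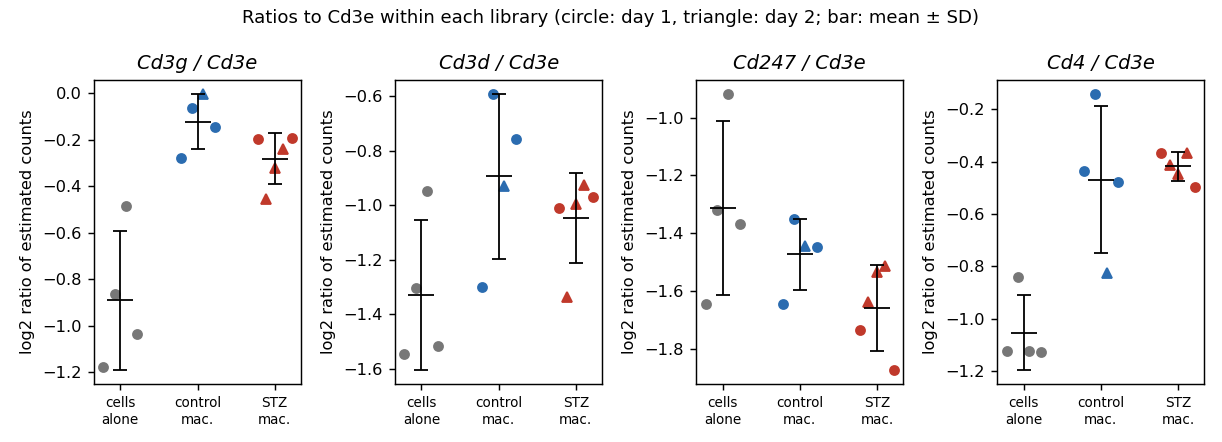
Log2 ratio of the estimated counts of Cd3g, Cd3d, Cd247 and Cd4 to those of Cd3e within each library (y axis), by group (x axis); circles are day 1, triangles day 2, bars the mean ± SD. For Cd3g and for Cd4 the 9 co-culture libraries sit above the 4 libraries of cells alone.

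Cd4, the co-receptor, was at 804, 515, 684 and 844 CPM in cells-alone replicates 1 to 4 and at 1139.9, 1029.5, 1226 and 1089 CPM in the control-macrophage libraries. In STZ-macrophage replicates 1 to 5 it was at 786, 1008, 979.9, 899.7 and 804 CPM. The control-macrophage libraries were again above both other groups in TMM-scaled CPM, and the STZ-macrophage libraries overlapped the cells alone. Per unscaled total, control-macrophage replicate 3 (39723 counts of 43.5 M) was below cells-alone replicate 4 (28837 of 31.2 M). The difference to the cells alone was 0.59 (SE 0.16, edgeR adjusted p = 0.0108) with control and 0.18 (SE 0.18, adjusted p = 0.438) with STZ macrophages, and that between the co-cultures was -0.41 (SE 0.16, adjusted p = 0.182). Without the 3 libraries of highest GC content the last was -0.06, with day 2 STZ-macrophage libraries set against control-macrophage replicate 3 alone. Cd4 varied least between replicates of the 9 genes, with a pooled SD within groups of 0.21 log2 CPM (percentile 1.83 of all genes tested).

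Lck, the kinase that starts phosphorylation at the receptor, was the highest of the 9 per length in every group. It was at 1369 to 2987 CPM in the cells alone, 2176 to 3473 CPM in the control-macrophage and 1592 to 2307 CPM in the STZ-macrophage co-culture, with overlap between all groups. The log2 fold change was 0.04 (SE 0.21, edgeR adjusted p = 0.887) with control macrophages and -0.54 (SE 0.23, adjusted p = 0.0765) with STZ macrophages against the cells alone.

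Zap70, which encodes the kinase that binds the phosphorylated chains, was low in most libraries and high in 3. It was at 25.2, 91.8, 16.4 and 15.2 CPM in cells-alone replicates 1 to 4 and at 17.3, 24.7, 16.7 and 15.8 CPM in the control-macrophage libraries. In STZ-macrophage replicates 1 to 5 it was at 157, 17.05, 17.3, 16.6 and 139 CPM. Thus the high values were in 1 library of cells alone and in both day 1 STZ-macrophage libraries, while the day 2 STZ-macrophage libraries were at the level of the controls. On day 1 the fitted difference between the co-cultures was 2.94 (SE 0.65, edgeR adjusted p = 0.0952), and on day 2, with 1 control-macrophage library, it was 0.03 (SE 0.81, adjusted p = 0.995). The difference between the days was -2.91 (SE 0.98, adjusted p = 0.327) and was not called. The 3 high libraries are the 3 with the highest mean GC content named above, and Zap70 has the highest transcript GC content of the 9 genes (59.5%). Of all 15781 genes tested, 986 (6.25%) were higher in each of those 3 libraries than in each of the other 10. Their median transcript GC content was 52.4% against 48.7% over all genes. The library means were computed from the same counts, so a higher GC content of such genes partly follows from the choice of libraries. Zap70 was the only one of the 9 genes among the 986. Lck, next in transcript GC content after Zap70 and Lat (54.3%), had its 3 lowest values in those 3 libraries (1369, 1592 and 1710 CPM). Without those libraries the difference between the co-cultures was 0.32 for Zap70, against 1.70 (edgeR adjusted p = 0.17) with them. No day 1 STZ-macrophage library is left in that fit, so the day 2 ones are set against control-macrophage replicate 3 alone. The part of base composition in the values of Zap70 was not tested.

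Lat, the membrane adaptor phosphorylated by ZAP-70, had the second largest spread within groups of the 9 genes, after Zap70. It was at 609.5, 486, 243 and 127 CPM in cells-alone replicates 1 to 4, at 336, 403, 96.0 and 239.7 CPM in the control-macrophage libraries, and at 334, 359, 209, 329.8 and 359 CPM in STZ-macrophage replicates 1 to 5. All groups overlapped. Its transcript GC content, 57.5%, is the second highest of the 9, and its lowest values were in cells-alone replicate 4 (library mean 47.2%) and control-macrophage replicate 3 (47.2%), the libraries of lowest mean GC content. With the mean GC content of the library as a term, an alternative added after the data had been seen, the difference between the co-cultures went from 0.63 (SE 0.49, edgeR adjusted p = 0.429) to -0.23 (adjusted p = 0.812). In the authors' adjusted values Lat was lower than in the cells alone by limma in both co-cultures (-2.45, adjusted p = 0.000485, and -1.49, adjusted p = 0.0272), and Zap70 was lower in the control-macrophage co-culture (-1.78, adjusted p = 0.0154). The part of base composition in these values was not tested either.

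**Figure D4:**
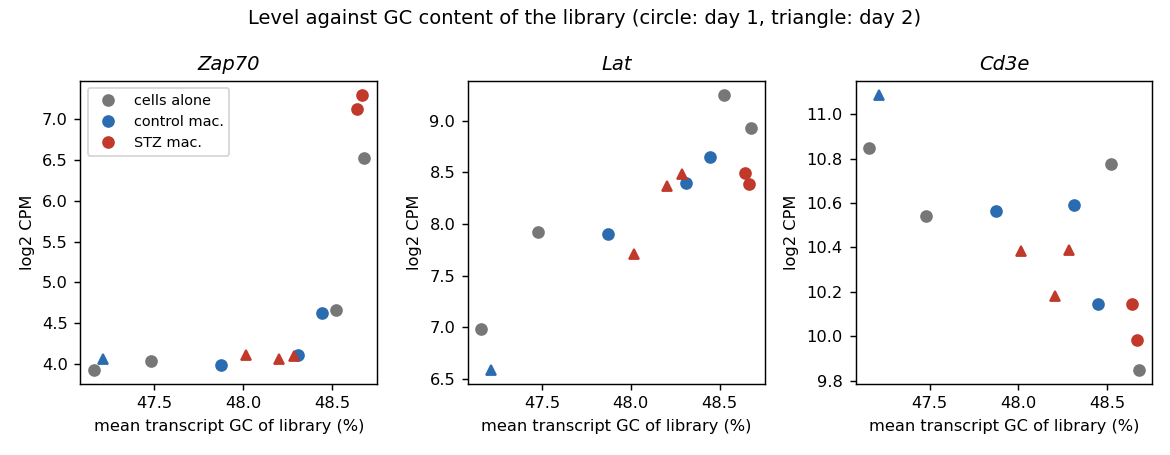
Level of Zap70, Lat and, for comparison, Cd3e (log2 CPM, y axis) against the mean GC content of the transcripts counted in each library (x axis); colours are the 3 groups, circles day 1 and triangles day 2. The 3 libraries with the highest GC content hold the 3 highest values of Zap70, and the 2 with the lowest GC content hold the lowest values of Lat.

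Lcp2 encodes SLP-76, the cytosolic partner of LAT. It was at 212 to 394 CPM in the cells alone, 273 to 418 CPM in the control-macrophage and 235 to 379.7 CPM with STZ macrophages, and no comparison called it (log2 fold changes 0.10, -0.21 and -0.31, edgeR adjusted p of 0.704, 0.484 and 0.351). Macrophages express Lcp2 as well. The summed macrophage markers given above reached their highest values in the STZ-macrophage co-culture, and their part in these values was not tested.

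The spread within groups set these genes apart from each other. The pooled SD was 0.33 to 0.38 log2 CPM for Cd3d, Cd3e, Cd3g, Cd247, Lck and Lcp2, under the median of all genes tested (0.63), and 0.78 for Lat and 1.27 for Zap70. Per kilobase of merged exons, Lck led with 802 ± 236, 905 ± 198 and 672 ± 108 CPM per kb (mean ± SD; n = 4, 4 and 5) in the cells alone, the control-macrophage and the STZ-macrophage co-culture. The 3 CD3 chains followed at 248 to 368, 390 to 471 and 293 to 319 CPM per kb with mean ± SD intervals that overlapped in each group. Cd4 was next at 177 ± 36.6, 278 ± 20.6 and 222 ± 24.8 CPM per kb, and its interval overlapped that of Cd3g alone in the cells alone, that of Cd3e alone in the control-macrophage co-culture and that of no CD3 chain in the STZ-macrophage co-culture. Lat (97.1 to 132), Cd247 (71.7 to 114) and Lcp2 (64.9 to 76.7) followed, each overlapping its neighbour except Lat and Cd247 with STZ macrophages. Zap70 came last, at 12.4 ± 12.3, 6.23 ± 1.37 and 23.2 ± 24.0 CPM per kb. Merged exons take in every annotated transcript, which makes Cd247 (5329 merged bases against 2957 in its longest transcript) look lower than a transcript length would.

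Related genes of the pathway were grouped by role (the plot of related genes by role), and their counts stand beside the 45% and 43.1% of all genes called against the cells alone with control and STZ macrophages. No test compared these lists with the 9 genes or with each other. Of 14 effectors downstream of LAT and SLP-76, 8 were lower and none higher in the control-macrophage co-culture than in the cells alone, with a median log2 fold change of -1.23. In the STZ-macrophage co-culture 8 were lower and 1 higher, with a median of -1.11. The phospholipase Plcg1 was at 152.9 ± 35.3 CPM (SD, n = 4) in the cells alone, 53.0 ± 6.26 (n = 4) with control macrophages and 48.5 ± 4.14 (n = 5) with STZ macrophages (log2 fold changes -1.58 and -1.76, edgeR adjusted p = 3.88e-05 and 3.32e-05). Itpkb, an inositol phosphate kinase, fell as well (-2.50 and -2.65). Of 6 other kinases at the receptor, Tec (-2.91 and -3.60) and Fyn (-0.74 and -0.97) fell in both co-cultures. The CD3-binding kinase Syk, a relative of ZAP-70 that B cells and macrophages use, was called higher in both but stood at 1.15 ± 0.703 and 1.36 ± 0.538 CPM, with 6 counts in all over the cells alone, beside the macrophage markers given above, whose part in it was not tested.

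Of 18 other adaptors, 8 were lower and 2 higher with control macrophages, and 7 lower and 2 higher with STZ macrophages. Trat1, an adaptor that binds the receptor complex, was at 208.6 ± 81.1 CPM in the cells alone, 37.9 ± 7.48 in the control-macrophage and 17.1 ± 2.51 in the STZ-macrophage co-culture (-2.38 and -3.39), while Sh3bp2 was at 4.02 ± 1.94, 42.0 ± 11.5 and 52.3 ± 14.5 CPM (3.17 and 3.22). Negative regulators went both ways, with 6 of 15 higher and 3 lower with control macrophages and 4 higher and 3 lower with STZ macrophages. Dok2, an inhibitory adaptor, rose (2.02 and 1.76) and Ubash3b, a phosphatase that acts on ZAP-70, fell (-3.23 and -3.39). Among 6 surface modulators the adhesion receptor Cd2 rose in both (1.11 and 0.63), and the phosphatase Ptprc (CD45) had log2 fold changes of 0.53 (edgeR adjusted p = 0.0858) and -0.37 (adjusted p = 0.25). Cd8a was called higher in the control-macrophage co-culture at 5.34 ± 4.204 CPM, with 14 counts in all over the cells alone, and Cd8b1 lower in the STZ-macrophage co-culture at 12.0 ± 1.42 against 26.1 ± 11.7 CPM. The 2 comparisons share the cells alone.

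Between the co-cultures none of the 59 genes in these lists was called by edgeR. At an unadjusted p under 0.05 there were 3 of 6 surface modulators, 2 of 6 kinases, 6 of 18 adaptors, 1 of 14 effectors and 4 of 15 negative regulators, beside 22.8% of all genes. The smallest p were those of Lax1, an inhibitory adaptor, at 41.5 ± 13.5 CPM with STZ and 73.9 ± 25.3 with control macrophages (-1.15, SE 0.25, adjusted p = 0.0798), and Ptprc, at 2717 ± 430 and 4500 ± 1798 CPM (-0.90, SE 0.22, adjusted p = 0.114). Medians were -0.61 for surface modulators, -0.31 for kinases, -0.38 for adaptors, 0.01 for effectors and -0.01 for negative regulators, beside -0.53 for the 9 genes and -0.13 for all genes. Map4k1, a kinase that targets SLP-76, was at 37.1 ± 46.6 against 6.78 ± 2.25 CPM (2.08, SE 0.83, edgeR adjusted p = 0.185). Its SD with STZ macrophages was larger than its mean. The transcript GC content of Map4k1 is 56.4%, and the part of base composition in its values was not tested.

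**Figure D5:**
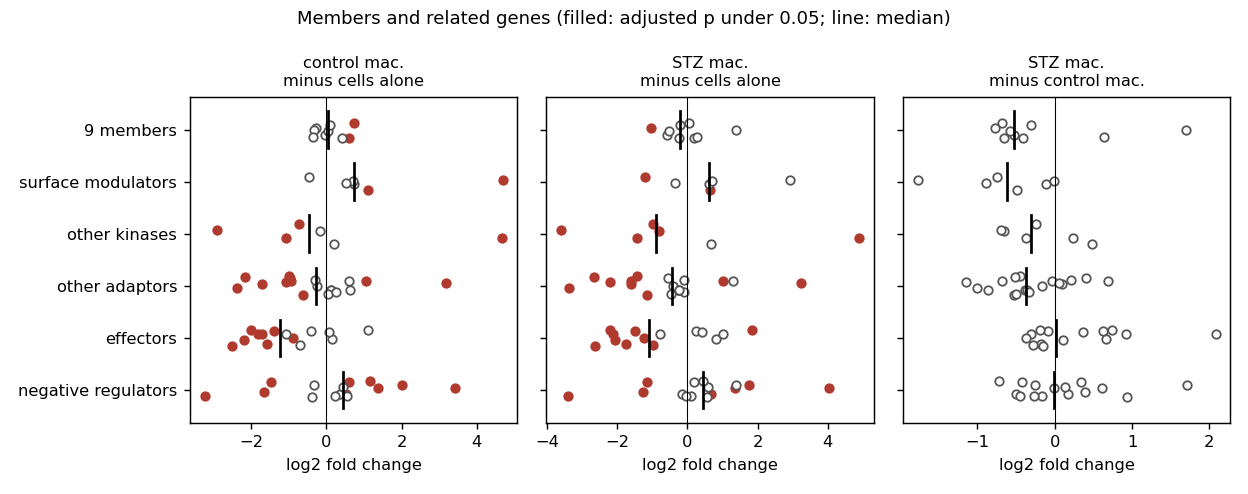
Log2 fold change (x axis) of the 9 genes and of the related genes of each role (rows) in the 3 comparisons (panels, with their own scales); filled symbols have an adjusted p under 0.05 by edgeR and the vertical line is the median of the row. Most effectors lie left of 0 against the cells alone, whereas the 9 genes lie around 0, and no symbol is filled between the co-cultures.

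Within the labelled days the differences between the co-cultures kept their sign for most genes. On day 1 the log2 fold changes of Cd3d, Cd3e, Cd3g, Cd247, Cd4 and Lck were between -0.70 and -0.38, and on day 2, against 1 control-macrophage library, between -1.11 and -0.35. No gene of the 9 was called on either day by edgeR (0.215% of all genes on day 1, 0% on day 2, where 2212 genes had an unadjusted p under 0.05), nor was any difference between the days (0.00634% of all genes). Within day 1, against the cells alone, Cd3g (0.62, adjusted p = 0.0394) and Cd4 (0.61, adjusted p = 0.015) were called higher with control macrophages (44.9% of all genes called). With STZ macrophages on day 1, Cd247 (-0.99, adjusted p = 0.0131) was called lower and Zap70 (1.99, adjusted p = 0.0181) higher (38.8% of all genes called). These values come from 1 edgeR model of group and day over all 13 libraries.

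For each of the 9 genes the gene with the most similar course over the 13 libraries was found among 7359 others. The measure was the root mean square difference of centred log2 CPM. Candidates had a mean of at least 3 log2 CPM. T cell receptor genes (Trac, Trbc1 and Trbc2 among them), immunoglobulin genes, gene models and mitochondrially encoded genes were left out of the search. None of the 9 had another of the 9 as its nearest gene. The nearest gene was Dctn6 for Lck (0.07 log2 units), Brk1 for Cd247 (0.08), Nub1 for Cd3e (0.11), Churc1 for Cd3d (0.11), Emc1 for Lcp2 (0.11), Septin6 for Cd4 (0.12), Nmi for Cd3g (0.13) and Tspan13 for Zap70 (0.22). For Lat it was Vav1 (0.10), the exchange factor that the LAT and SLP-76 complex recruits, followed at some distance by Apeh (0.19). The libraries share their depth and base composition across all genes, and nothing about shared function follows from these distances.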

How the data were processed

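Estimated counts per gene, which the authors deposited without normalization for 13 libraries, were used (55774 entries, 0 unmatched columns, 407 repeated symbols kept separate). Reads were aligned to GRCm38, per the labels' protocols. DESeq2 is named in the submitters' processing notes; the counter and the annotation were not given in the sources used here. A second table of the authors holds deposited log2 values for 12236 genes, adjusted in a way not given in the sources used here, and served as an alternative with limma 3.58.1. Estimated counts were rounded and tested with edgeR 4.0.16 in R 4.3.3 (filterByExpr, TMM, robust quasi-likelihood, 1 term per group and 1 for the labelled batch day, all 13 libraries); DESeq2 1.42.0 was an alternative. Log2 CPM used a prior count of 2. A standard error is |log2 fold change| divided by sqrt(F). The 15781 genes tested share the adjustment. A floor of 3 counts corresponds to 0.0490 to 0.173 CPM of the unscaled total. This floor covers counting error only, and no molecular identifiers are described. The edgeR standard errors and p-values include the spread between libraries. GC content is that of the longest GENCODE vM21 transcript, and library means cover 97.6% of counts. Named genes were the 9 members, the 2 tested genes of each role list with the smallest p per comparison, Fyn, Syk, Plcg1, Ptprc and Cd8a, the constant genes Trac, Trbc1 and Trbc2, and the nearest gene of each member; a further gene under this rule is not reported here. Members and lists were chosen with earlier results of these data known. Of 6 gamma-delta T cell markers 3 matched the table (summed level 15.5 to 36.7 CPM in any library). Promoters are RefSeq windows on GRCm38.p6. The ratio of Cd3d to Cd3g, the GC term and the fit without the 3 libraries of highest GC content were added after the data had been seen. The fit without those 3 libraries leaves STZ-macrophage libraries of day 2 only. The fit was tested on simulated data. The labels do not state a pairing by replicate number. Deviations from group means were correlated across genes between libraries of the cells alone and the control-macrophage co-culture. The correlation was 0.323 to 0.608 in the 4 pairs of the same number. Pairs of unlike number reached 0.717, so these correlations cannot show a pairing. In 2 of 4 pairs the best match had the same number. The lowest same-number correlations of the other group pairs were -0.611 and -0.323.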

Additional observations from a re-analysis of the deposited data

Results flagged for a closer look

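Over 27 sets of a gene and a group, 1 library stood apart by Dixon's criterion, where chance gives about 1 in 20. Lat in STZ-macrophage replicate 3 was at 209 CPM, against 329.8 to 359 CPM in the other 4 libraries of that group, and the gap took a share of 0.841 of the group's range on the log2 scale. No difference between the labelled days in the effect of STZ macrophages was called for any of the 9 genes.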

How the results depend on the processing

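Of the called genes, Cd3g and Cd4 (control-macrophage co-culture against cells alone) and Cd247 (STZ-macrophage co-culture against cells alone) stayed called without each library in turn and with the library GC content as a term. Cd3g and Cd4 kept their sign in all 19 alternatives and were called in 16 each, Cd247 in 17 of 20. The median log2 fold change of all genes moved from -0.13 to -0.45 (control-macrophage co-culture against cells alone), from -0.05 to -0.17 (STZ-macrophage) and from -0.13 to 0.07 (between co-cultures) with total count scaling, and to -0.08, 0.11 and -0.03 with RLE. Calls over all genes then split 2912 higher and 4639 lower with total counts in the first, against 3641 and 3465, and 30 and 14 with RLE or 38 and 19 with total counts between the co-cultures, against 24 and 27. The cause of the changes below was not tested.

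Members called against the cells alone with control macrophages (2) were 1 with total counts, 0 with only the 2 groups and 1 with day 1 only, where all genes called (7106) were 7551, 4814 and 5651, and 2 to 3 leaving out a library, Cd247 joining without cells-alone replicate 2 (-0.43, adjusted p = 0.0297) and Cd3d without replicate 3 (0.60, adjusted p = 0.048). With STZ macrophages (1) they were 3 with total counts (6843 of all genes called), 0 with the replicate block, 2 with only the 2 groups (5085), 2 with DESeq2 (7768) and 1 to 4 (4 without cells-alone replicate 2, with 8043 of all genes called) leaving out a library; genes called in all (6807) were 3476 with the replicate block and 4494 without the 3 libraries of highest GC content. Between the co-cultures members called (0) were 5 with only the 2 groups. All genes called there (51) were 19 without a day term, 0 with the replicate block, 2698 with only the 2 groups, 7 with day 1 only, 674 with DESeq2, 88 with the authors' adjusted values, 9 with the GC term and 19 without the 3 libraries of highest GC content, and 0 to 87 leaving out a library (0 without control-macrophage replicate 4, STZ-macrophage replicate 1 or 5, 87 without control-macrophage replicate 3). The block changed no other call of the 9 genes. Cd3g and Cd4 stayed called with it in the comparison of control macrophages with the cells alone. Whether replicate numbers pair libraries is not known.

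Fold changes that changed sign were small or of Lat and Zap70. With control macrophages against cells alone, total counts gave Lck -0.26 and Lcp2 -0.20; the authors' values Cd247 0.28 and Cd3e 0.014; Cd3e was 0.038 without a filter, 0.083 without a day term and 0.025 with the GC term; without the 3 libraries Lck was -0.12, Lat 0.071 and Zap70 0.088. Leaving out a library, the ranges were -0.20 to 0.10 for Cd3e, -0.14 to 0.22 for Lck, -0.64 to 0.017 for Lat and -0.85 to 0.67 for Zap70. With STZ macrophages against cells alone, Cd3g was -0.051 with total counts and -0.32 without the 3 libraries. Cd3d was 0.025 without a filter, 0.084 with day 1 only, 0.050 with the authors' values and 0.17 with the GC term, and Lcp2 was 0.079 without a filter, 0.13 without a day term, 0.015 with the authors' values and 0.16 without the 3 libraries. Lat was -0.20 without a day term, -0.0071 with only the 2 groups, -1.49 with the authors' values and -0.67 with the GC term, and Zap70 -0.027 with the authors' values. Leaving out a library, ranges were -0.10 to 0.43 for Cd3g, -0.37 to 0.13 for Cd3d and -0.0093 to 0.66 for Lat. Between the co-cultures Lat was -0.23 with the GC term and Lcp2 0.093 without the 3 libraries. Mean CPM moved by less than 1 SD with RLE or total counts except Cd4 in the control-macrophage co-culture, at 1001 with total counts.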
